A study of Mus musculus with 6 samples.

Results

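*Ccdc82* (gene 66396) encodes a coiled-coil protein whose function is little known. The gene was selected on the authors' mean FPKM (fragments per kilobase of transcript per 1000000 mapped fragments), which in *Btg4*-depleted mouse oocytes was the highest of all 15707 listed transcripts, and it is 1 gene of these. Its level there, its rank and its ratio to control are therefore given as a description, without a test.

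The study compared the polyadenylated RNA of 3 libraries of *Btg4*-depleted oocytes, injected with siRNAs against *Btg4*, with that of 3 libraries of control oocytes, injected with control siRNAs (labelled Scr). Each library came from 50 oocytes. All oocytes were follicle-enclosed oocytes of (C57BL x CBA) F1 females aged 10 to 12 days, were cultured in their follicles for 8 to 10 days and matured *in vitro* to metaphase II, and each follicle preparation used 2 to 5 females. Depletion was transient RNA interference in cultured oocytes and not a gene knockout, and the labels do not say which females gave which library.

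A maturing oocyte is transcriptionally silent and lives on a stored pool of maternal transcripts. Messages leave the translated pool when their poly(A) tail is shortened. BTG4 is an adaptor that brings the CCR4–NOT deadenylase to maternal mRNAs during meiotic maturation. cDNA was primed on the poly(A) tail, so the level of a transcript depends on its amount and on its tail.

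Levels were available as 1 mean per group and not per library. No value therefore has a standard deviation, and a difference carried by all libraries of a group cannot be told apart from one carried by a single library. Each library was made from 50 oocytes, but for other cell types fewer cells cannot be told apart from less RNA per cell. The target of the siRNAs, *Btg4*, had an authors' mean FPKM of 39.3 in *Btg4*-depleted oocytes and 1766 in control oocytes. Of 29 listed oocyte genes 28 reached a mean FPKM of 1. Of 19 listed markers of follicle, stroma, blood and vessel cells 7 did, and these 19 summed to 44.9 FPKM in *Btg4*-depleted and 64.9 FPKM in control oocytes. The inhibin subunit genes of granulosa cells, *Inha* and *Inhba*, were at 12.0 and 9.24 FPKM in *Btg4*-depleted oocytes and at 8.20 and 4.28 FPKM in control oocytes, and *Cyp19a1*, the granulosa aromatase, was at 5.87 FPKM in *Btg4*-depleted and 14.8 FPKM in control oocytes. The vessel marker *Pecam1* was at 8.12 FPKM in *Btg4*-depleted and 26.5 FPKM in control oocytes. *Nr5a2* was at 3.84 FPKM in *Btg4*-depleted and 4.94 FPKM in control oocytes, and *Kitl* at 0.907 FPKM in *Btg4*-depleted and 2.77 FPKM in control oocytes. The last of the 7, *Hsd17b1*, was at 1.74 FPKM in *Btg4*-depleted and 0.463 FPKM in control oocytes. The part of these markers in the level of *Ccdc82* was not tested. The markers *Col1a1*, *Lhcgr*, *Has2*, *Cyp17a1* and *Gatm* were listed at the table's lowest value, 0.01 FPKM, in *Btg4*-depleted oocytes. In control oocytes these markers lay between 0.0267 FPKM (*Lhcgr*) and 0.157 FPKM (*Cyp17a1*). The markers *Acta2*, *Amh*, *Col1a2*, *Foxl2*, *Fshr*, *Ptprc*, *Ptx3* and *Tnfaip6* were looked for and were not among the listed transcripts under these symbols.

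*Ccdc82* lies on the plus strand of chromosome 9 (GENCODE M21, build GRCm38). The longest annotated transcript, Ccdc82-206, runs from 13246968 to 13292520 in 8 exons and has 4736 bases. It holds 68 bases of 5′ UTR, 1557 bases of coding sequence and 3111 bases of 3′ UTR. The length that the deposited table uses, 4665 bases, lies between this transcript and the other full-length one, Ccdc82-201, with 4642 bases. Both encode 518 codons. The 3′ UTR of Ccdc82-206 is longer than 84.0% of 13408 annotated 3′ UTRs of at least 150 bases, whose median is 1273 bases.

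The end of the longest annotated transcript, where a poly(A) tail would be added, is shown for its signals. A canonical polyadenylation hexamer, AATAAA (in capitals), ends 22 bases before the 3′ end, and the window lies at chromosome 9 from 13292483 to 13292510. One match to the Pumilio element TGTANATA (in capitals), the motif of a family of mRNA-binding repressors, ends 130 bases before the 3′ end, in a window from 13292373 to 13292400.
Polyadenylation hexamer: tccatagtgcAATAAAgtaaaatggttt
Pumilio element: tgtgtgtatgTGTATATAtgttctagtc

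Each motif was searched on the sense strand of the last 150 bases. AATAAA was found in 67.5% of the 13408 3′ UTRs in that window and TGTANATA in 6.46%. TTTTAT and TTTTAAT are the letters of the cytoplasmic polyadenylation element that lengthens tails of stored oocyte mRNAs. Neither occurs in the last 150 bases of the longest annotated *Ccdc82* transcript, while 24.6% of 3′ UTRs hold one there. In the whole 3′ UTR of this transcript there are 4 matches to TTTTAT and 2 to TTTTAAT. The nearest to the end ends 207 bases before it. The other full-length transcript, Ccdc82-201, ends earlier, at 13292353, and its last 150 bases hold a TTTTAT and a TTTTAAT. The AATAAA and Pumilio sites shown above lie past its end. A second hexamer, ATTAAA, was also searched. One match starts at base 4539 of the longest transcript and ends 192 bases before the 3′ end of that transcript. This match lies before the end of Ccdc82-201, within its last 150 bases. The whole 3′ UTR of the longest transcript holds 4 matches to AATAAA and 2 to ATTAAA. Of these, 2 AATAAA and 1 ATTAAA lie in the repeated element described below. Which end is used in these oocytes was not tested. A match or its absence describes the letters only.

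Most of the 3′ UTR is a repeated element. From base 2038 to base 3908 of the transcript (chromosome 9, 13289822 to 13291692, in the last exon) lie 1871 bases, or 60.1% of the 3′ UTR, whose 2 ends are direct copies of each other. The left end has 395 bases and the right end 384 bases, and they align at 93.2% identity. The first 30 bases of both ends are identical, as are the last 30, and they are shown here because they define the element, with capitals for bases that match in the other end.
Left end, first 30 bases, chr9:13289822-13289851: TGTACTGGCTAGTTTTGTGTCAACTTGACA
Right end, first 30 bases, chr9:13291309-13291338: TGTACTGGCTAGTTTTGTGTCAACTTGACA
Left end, last 30 bases, chr9:13290187-13290216: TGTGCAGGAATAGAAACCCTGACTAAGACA
Right end, last 30 bases, chr9:13291663-13291692: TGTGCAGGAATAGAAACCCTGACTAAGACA

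The 6 bases before the element, GTCCCC, are the same as the 6 bases after it. Long direct ends and a short duplication of the flanks are the general form of an inserted LTR retrotransposon, a class of element that is well represented in mouse oocyte RNA. The annotation used here does not name repeats, so no family is given. Of the 6 annotated *Ccdc82* transcripts, the 2 full-length ones hold the element. The coding sequence and the rest of the 3′ UTR lie outside it.

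**Figure D1:**
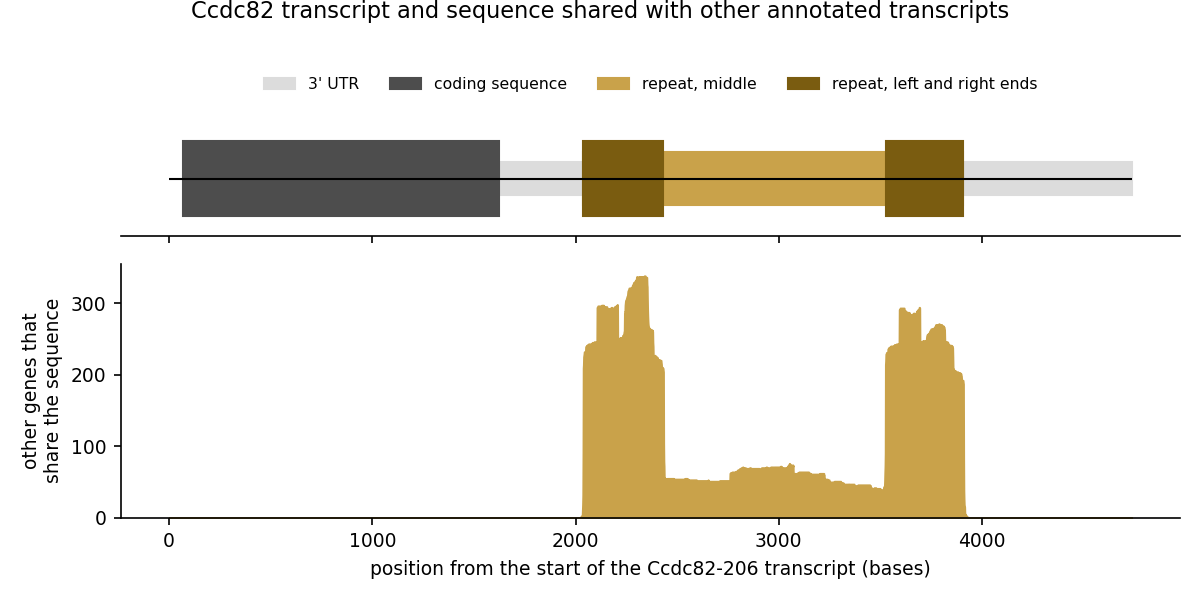
Map of the Ccdc82-206 transcript (top) and the number of other annotated genes with a transcript that aligns to each position over at least 100 bases at 80% identity or more (bottom), against position from the transcript start in bases. The shared sequence covers the repeated element from base 2038 to base 3908, and some alignments run a few bases past its bounds, with up to 338 genes at its ends and 39 to 90 genes in its middle.

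Sequence of this element occurs in transcripts of many other genes. Aligned to 141767 annotated transcripts, it matched 463 other genes over at least 100 bases at 80% identity and 142 other genes over at least 300 bases at 90% identity. The longest match, 1902 bases at 94.1% identity, was with *Gm21244*. Some alignments ran past the bounds of the element, such as one from base 2024 and one to base 3931. Alignments wholly outside it were found with 1 other gene, over at most 55 bases.

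The reads were 100 bases long, so exact windows of that size were counted as well. Of the 100-base windows within the element, 18.7% occur unchanged, on either strand, in an annotated transcript of another gene, and 31 genes hold at least one. Of the 50-base windows within it 57.7% do, in 238 genes. In the coding sequence 0 of 1458 windows of 100 bases and 0 of 1508 windows of 50 bases were shared. Over the whole transcript 7.16% of the 100-base windows were shared. Copies in the genome outside annotated transcripts were not searched. How fragments with several matches were assigned is not given in the sources used here, so the level of *Ccdc82* may contain fragments of other copies, and their part in its level and ratio was not tested.

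*Ccdc82* was the most abundant listed transcript in both groups. Its authors' mean FPKM was 36507 in *Btg4*-depleted oocytes and 7794 in control oocytes, a 4.68-fold difference as deposited. In *Btg4*-depleted oocytes it stood apart from the next transcript, *Ubb* (polyubiquitin) at 17309, by 2.11-fold. In control oocytes it was 1.18-fold above the next one, *H1foo*, the linker histone of the oocyte, at 6594. Without library values it cannot be said whether this last gap exceeds the spread between libraries.

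The transcripts below *Ccdc82* stood in a different order in each group. After *Ubb*, the list of *Btg4*-depleted oocytes went on with *Rn18s*, the 18S ribosomal RNA, at 6189 FPKM (it has no mRNA poly(A) tail), *Ldhb*, a lactate dehydrogenase subunit, at 4608 and *Dppa3*, a maternal protector of DNA methylation, at 4440. In control oocytes *H1foo* was followed by *Ldhb* at 6529, *Dppa3* at 5445 and *Gdf9*, an oocyte growth factor, at 4639. *Ubb* stood at rank 2 in *Btg4*-depleted and rank 8 in control oocytes, and *Rn18s* at rank 3 in *Btg4*-depleted and rank 9 in control oocytes. *Pttg1* (securin), *Bcl2l10*, a Bcl2 family member, and *Tcl1*, a coactivator of the kinase Akt, stood at ranks 11, 14 and 18 in *Btg4*-depleted oocytes and at ranks 6, 7 and 10 in control oocytes.

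**Figure D2:**
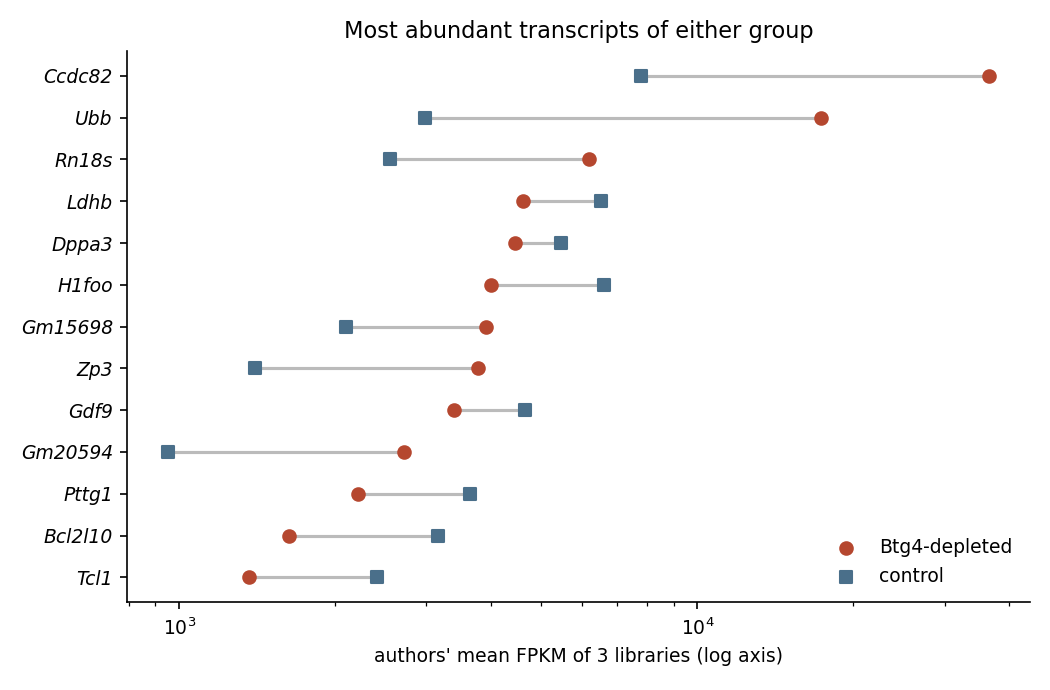
Authors' mean FPKM (log axis) of the 13 transcripts that were among the 10 highest of either group, in *Btg4*-depleted (circles) and control oocytes (squares), each the mean of 3 libraries without an error. *Ccdc82* is highest in both groups, at 36507 in *Btg4*-depleted and 7794 in control oocytes, and *Ubb*, at 17309 in *Btg4*-depleted and 2976 in control oocytes, is the second highest in *Btg4*-depleted oocytes and the eighth in control oocytes.

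For its length, *Ccdc82* took up more of the sequencing than its FPKM shows. FPKM multiplied by the listed length in kilobases gives back a fragment rate (per 1000000 mapped fragments), which summed to 1030400 in *Btg4*-depleted and 1020570 in control oocytes. *Ccdc82* held 8.53% of summed FPKM in *Btg4*-depleted oocytes and 1.91% in control oocytes. It held 16.5% of all fragments in *Btg4*-depleted oocytes and 3.56% in control oocytes, that is, 1 fragment in 6.05 in *Btg4*-depleted and 1 in 28.1 in control oocytes. By fragments it was again first in both groups, 8.45-fold above the second transcript in *Btg4*-depleted and 4.17-fold in control oocytes. These shares are not divided by length and say nothing of molecules.

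The fragment count behind the level of *Ccdc82* was high. The authors' mean normalized count of *Ccdc82* over all 6 libraries was 827514 fragments, 9.07 times that of *Ubb* at 91275. Divided by the fragment rate that FPKM and length give, it corresponds to a library size of 8008320 fragments. The same estimate from the 319 other genes of the authors' DESeq2 lists, which alone have such a count, has a median of 7824160 fragments. The counting error of the *Ccdc82* count is 0.110%. It covers the counting of fragments only, since fragments of amplified cDNA are not independent molecules, and the spread between libraries is unknown.

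**Figure D3:**
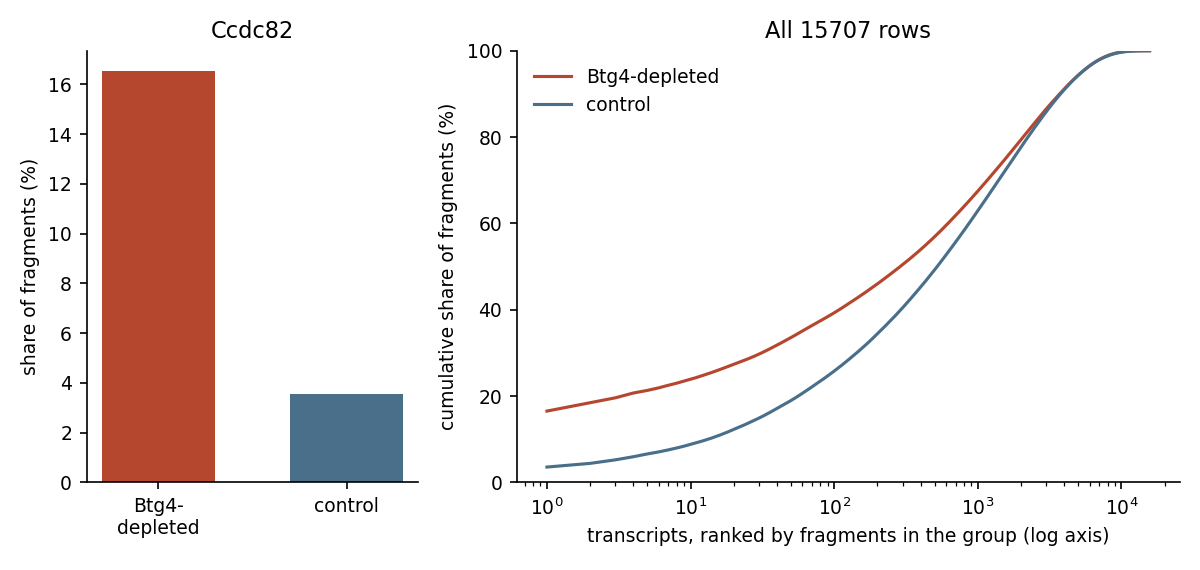
Share of all fragments held by *Ccdc82* (left, bars from 0) and cumulative share over all transcripts ranked by fragments within each group (right, log axis), for *Btg4*-depleted and control oocytes, from the means of 3 libraries. The curves start at the shares of *Ccdc82*, 16.5% in *Btg4*-depleted and 3.56% in control oocytes, and reach 39.3% in *Btg4*-depleted and 25.8% in control oocytes at the first 100 transcripts.

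*Ccdc82* made up a large part of the difference in fragment shares between the groups. Its share of fragments was 12.97 percentage points higher in *Btg4*-depleted oocytes. The share was higher for 6503 transcripts and lower for 9204 in these means, the gains summed to 33.1 percentage points, and *Ccdc82* held 39.2% of them. All other transcripts shared 83.5% of fragments in *Btg4*-depleted and 96.4% in control oocytes, a log2 ratio of -0.21 between these shares. The unscaled median log2 ratio over the 10012 measured genes, those whose FPKM averaged 1 or more over both groups, was -0.15. Set to the same sum of FPKM without *Ccdc82*, the median was -0.12. Set to the same sum of fragments without it, a scale chosen after the data were seen, the median was 0.01. How much of the unscaled median comes from the share of *Ccdc82* was not tested.

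The 10 highest transcripts held 23.9% of fragments in *Btg4*-depleted and 8.82% in control oocytes. With *Ccdc82* left out, the 10 highest others held 9.32% of the remaining fragments in *Btg4*-depleted and 5.85% in control oocytes.

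Scaled by a trimmed mean of ratios (TMM), *Ccdc82* had a log2 ratio of 2.39 (*Btg4*-depleted over control, of FPKM + 1), or 5.25-fold. TMM adds 0.16 to each log2 ratio of FPKM, and less to that of FPKM + 1 at low levels. Of the 10012 measured genes, 1953 (19.5%) were higher by 2-fold or more in *Btg4*-depleted oocytes on this scale, and 1140 (11.4%) were lower by as much. As deposited, without scaling, 16.2% were higher and 16.7% lower. A larger ratio was found for 86 measured genes, which puts *Ccdc82* at percentile 99.1. Among the 100 highest transcripts of control oocytes the median log2 ratio was -0.60, 12 were at least 2-fold higher and 14 at least 2-fold lower, and *Ccdc82* came second after *Ubb* (2.70). After these came *Gm20594* (1.67), *Zp3* (1.59), the zona pellucida protein that binds sperm, *Rn18s* (1.44) and *Gm15698* (1.06) among the 50 highest. Choosing transcripts by their control level by itself favours lower ratios.

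The genes nearest to *Ccdc82* in level were among the other highest ones. Taking the distance between log2 levels over the 2 group means as the measure of likeness, *Ubb* was nearest at 1.76, followed by *Ldhb* at 3.00, *Rn18s* at 3.02, *Dppa3* at 3.08 and *H1foo* at 3.20. Of these, *Ubb* had 17309 FPKM in *Btg4*-depleted and 2976 FPKM in control oocytes, and *Rn18s* had 6189 FPKM in *Btg4*-depleted and 2553 FPKM in control oocytes. Of the other listed ribosomal RNAs, *Rn28s1* had 210 FPKM in *Btg4*-depleted and 133 FPKM in control oocytes. *Ldhb*, *Dppa3* and *H1foo* had lower deposited means in *Btg4*-depleted oocytes, with TMM log2 ratios of -0.34, -0.13 and -0.56. The measure rests on 2 points per gene and contains the level by which *Ccdc82* was selected, so how far the others lie from it is no result.

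Against maternal transcripts of the oocyte, *Ccdc82* stood above their sum in one group and below it in the other. The 29 listed oocyte genes, which include *Dppa3*, *H1foo*, *Gdf9* and the zona genes, summed to 28196 FPKM in *Btg4*-depleted and 33128 FPKM in control oocytes. *Ccdc82* alone was at 1.29 times that sum in *Btg4*-depleted and at 0.235 times it in control oocytes. Of the 28 measured oocyte genes 10 (35.7%, beside 19.5% of all measured genes) were at least 2-fold higher and 3 at least 2-fold lower, with a median log2 ratio of -0.16. One of the 3 is *Btg4*, the target of the siRNAs. Without scaling 6 were higher and 4 lower, beside 16.2% and 16.7% of all measured genes. At the same sum of FPKM 5 were higher and 7 lower, beside 1494 and 1901 of the 10012 measured genes. Relative to 14 listed genes of general cell function, whose median was 57.0 FPKM in *Btg4*-depleted and 58.0 FPKM in control oocytes, *Ccdc82* was 640-fold higher in *Btg4*-depleted and 134-fold higher in control oocytes. The highest of these genes were *Ywhaz*, a 14-3-3 protein, at 173 FPKM in *Btg4*-depleted and 224 FPKM in control oocytes, and *Ppia*, cyclophilin A, at 123 FPKM in *Btg4*-depleted and 129 FPKM in control oocytes.

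The other coiled-coil domain containing (*Ccdc*) genes, a class by name and not by descent, did not share the level of *Ccdc82*. Of 121 others listed 79 were measured, with a median of 9.91 FPKM in *Btg4*-depleted and 9.18 FPKM in control oocytes. The highest was *Ccdc69* at 569 FPKM in *Btg4*-depleted and 1113 FPKM in control oocytes, so that *Ccdc82* stood 64.1-fold above it in *Btg4*-depleted and 7.0-fold above it in control oocytes. Next came *Ccdc186* at 197 FPKM in *Btg4*-depleted and 462 FPKM in control oocytes. *Ccdc115*, an assembly factor of the vacuolar proton pump, was at 186 FPKM in *Btg4*-depleted and 129 FPKM in control oocytes. *Ccdc101*, a subunit of the SAGA histone acetyltransferase complex also known as Sgf29, was at 160 FPKM in *Btg4*-depleted and 52.7 FPKM in control oocytes. *Ccdc55*, a splicing regulator, was at 112 FPKM in *Btg4*-depleted and 135 FPKM in control oocytes. Of the 79, 13 (16.5%) were at least 2-fold higher and 11 at least 2-fold lower, beside 19.5% higher and 11.4% lower over all measured genes. Larger ratios than that of *Ccdc82* were found, at far lower levels, for *Ccdc3* (log2 ratio 2.67), at 19.8 FPKM in *Btg4*-depleted and 2.60 FPKM in control oocytes, and *Ccdc107* (2.40), at 47.3 FPKM in *Btg4*-depleted and 9.20 FPKM in control oocytes.

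The genes next to *Ccdc82* on the chromosome were far below it in level. *Jrkl*, a gene of the jerky family, lies 1176 bases upstream in RefSeq on GRCm38 and was at 0.213 FPKM in *Btg4*-depleted oocytes and at 0.01, the lowest value of the table, in control oocytes. *Cntn5*, a neural adhesion gene and the next protein-coding gene on that side, 2342142 bases away, was at 0.490 FPKM in *Btg4*-depleted and 0.220 FPKM in control oocytes. On the other side *Maml2*, a Notch coactivator gene 4044 bases downstream, was not among the listed transcripts under this symbol. *Mtmr2*, a lipid phosphatase gene 454743 bases away, was at 14.3 FPKM in *Btg4*-depleted and 9.22 FPKM in control oocytes.

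Genes that share sequence with the repeated element were not, as a list at the main limits of length and identity, mostly higher. The list was set up after the values of *Ccdc82* were seen, and it gets no test. Of the 15707 rows 98.8% matched an annotated transcript. Other than *Ccdc82*, 53 rows shared at least 300 bases at 90% identity, and 40 of them were measured. In most of the 40 the match was about as long as 1 end of the element. Much longer matches were those of *Hexdc* (1216 bases) and *Tfcp2* (1883 bases). Of the 40, 6 (15.0%) were at least 2-fold higher and 2 (5.00%) at least 2-fold lower, against 19.5% and 11.4% over all measured genes. Their median log2 ratio was -0.21. Without scaling 6 (15%) were higher and 8 (20%) lower, with a median of -0.36, against 16.2% and 16.7% over all measured genes.

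The 4 highest list members in *Btg4*-depleted oocytes had lower means in control oocytes, an order that favours this direction. *Intu*, a planar polarity and cilium gene, was at 1791 FPKM in *Btg4*-depleted and 307 FPKM in control oocytes (log2 ratio 2.71). *Utp23*, a ribosome assembly factor, was at 1227 FPKM in *Btg4*-depleted and 241 FPKM in control oocytes (2.51). *Gm16702* was at 1255 FPKM in *Btg4*-depleted and 406 FPKM in control oocytes (1.79), and *Colec12*, a scavenger receptor, at 1102 FPKM in *Btg4*-depleted and 367 FPKM in control oocytes (1.75). The fifth, *D10Wsu102e*, was at 600 FPKM in *Btg4*-depleted and 814 FPKM in control oocytes (-0.28) and was the highest of the list in control oocytes.

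Of the 8 list members with a mean of at least 100 FPKM, these 4 were at least 2-fold higher and 0 at least 2-fold lower, against 19.2% and 8.3% of all 699 genes at that level (without scaling, 15.9% and 16.7%). In all 4 the shared sequence runs opposite to that in *Ccdc82*, and the libraries are not described as keeping strand. By direction, 6 of 25 measured members with an opposite match (24%) were at least 2-fold higher and 2 (8%) at least 2-fold lower. Their median log2 ratio was -0.30. Of 15 with a match of the same direction 0 were higher and 0 lower by as much. Over all measured genes 19.5% were higher and 11.4% lower. With matches of at least 300 bases at 80% identity, 15 of 76 measured members (19.7%) were at least 2-fold higher and 4 (5.26%) lower. Of the 14 of these with a mean of at least 100 FPKM, 8 (57.1%) were higher and 0 lower. With matches of at least 1000 bases at 80% identity, 2 of 4 measured members (50%) were at least 2-fold higher and 0 lower. Their median log2 ratio was 1.31. The numbers are small, the split and the limits were set after the values were seen, and no test was made.

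**Figure D4:**
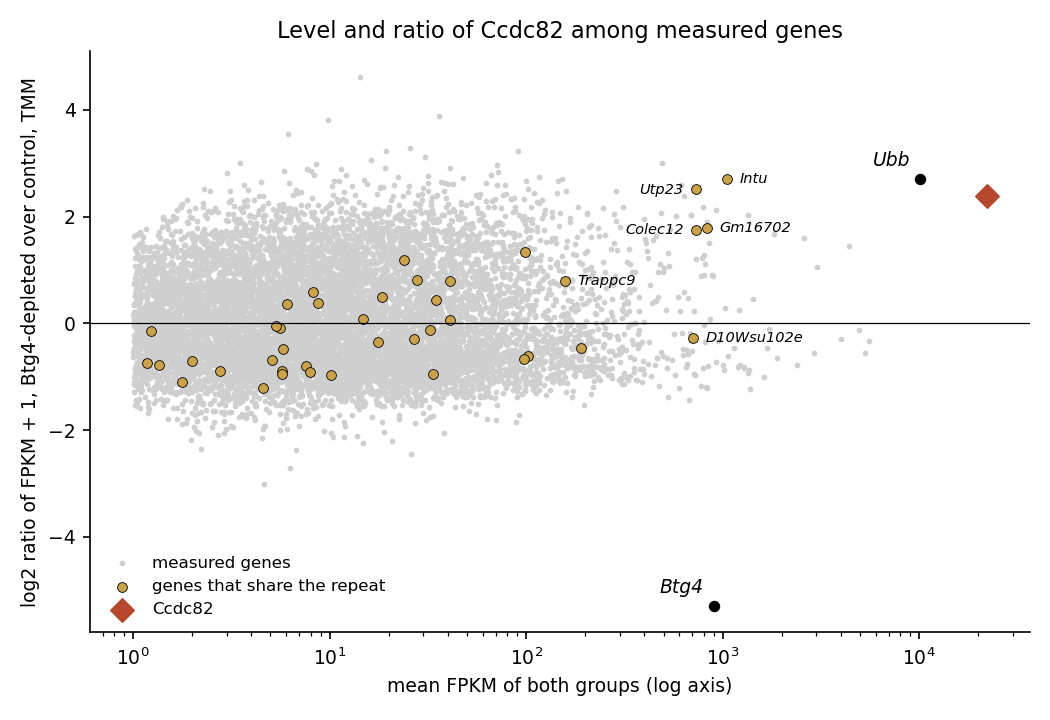
TMM-scaled log2 ratio (*Btg4*-depleted over control, of FPKM + 1) against the mean FPKM of both groups (log axis) for 10012 measured genes (grey), 40 genes that share sequence with the repeated element (ochre) and *Ccdc82* (diamond), from group means. *Ccdc82* lies at 2.39 at the far right beside *Ubb* at 2.70, and *Intu*, *Utp23*, *Gm16702* and *Colec12* lie between 1.75 and 2.71.

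Of 14 other scalings and filters, 13 gave a log2 ratio of *Ccdc82* between 2.16 and 2.66. Most of these add a constant to the same ratio of 2 group means. The range therefore shows how far the scale moves the ratio and not how stable it is between libraries. Quantile normalization gave 0, since it sets the highest transcript of both groups to one value. The level itself depends on the transcript length used. With the lengths of the 6 annotated transcripts in place of the listed one, it would range from 35960 to 92810 FPKM in *Btg4*-depleted and from 7677 to 19813 FPKM in control oocytes, and *Ccdc82* kept rank 1 in both groups at the lowest of these.

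**Figure D5:**
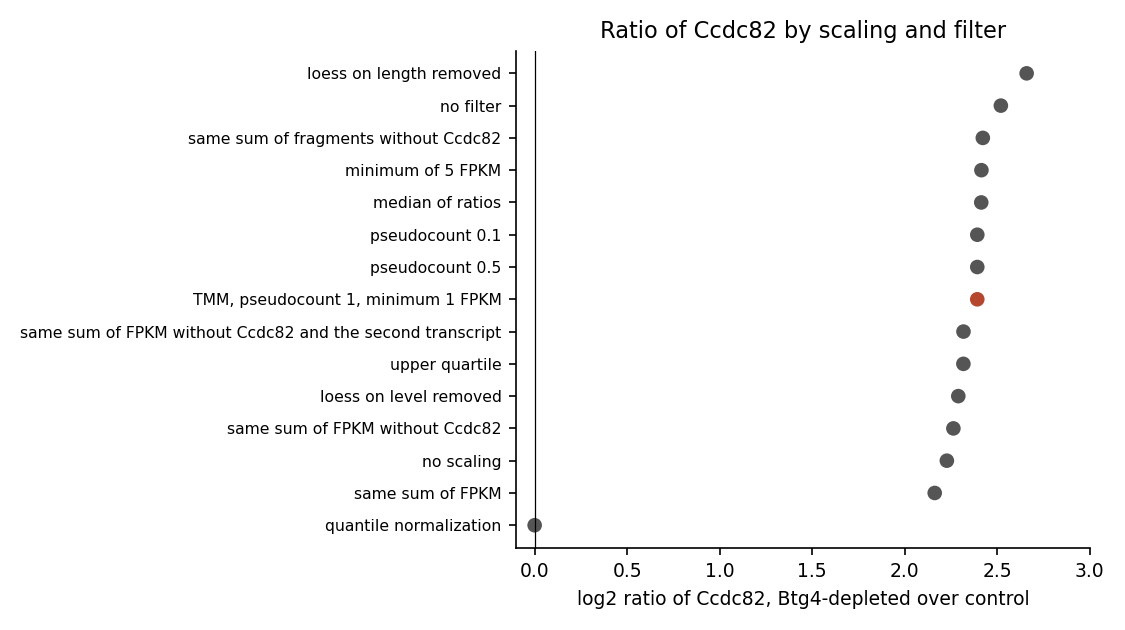
Log2 ratio of *Ccdc82*, *Btg4*-depleted over control, under TMM scaling (red) and 14 other scalings, filters and pseudocounts (grey), each from the group means without an error. Apart from quantile normalization at 0, the values lie between 2.16 and 2.66.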

How the data were processed

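The authors deposited FPKM of each gene as the mean of the 3 libraries of a group, made from paired-end reads of SMARTer cDNA. BWA and mm9 are named in the submitters' processing notes. How fragments were counted, and on which annotation, is not given in the sources used here. The authors' mean normalized counts (the signal in the deposited DESeq2 lists) were used only for depth. The deposited lists and table also hold the authors' fold changes, p-values and probabilities of their DESeq2 and NOISeq comparisons, and these were not used.

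Genes whose FPKM averaged 1 or more over both groups were called measured. Log2 ratios were taken of FPKM + 1, scaled by TMM with trims of 30% for ratios and 5% for levels, and ratios past 2-fold were counted. No test was possible without library values. *Ccdc82* and the gene lists were chosen with earlier results of these data known. Genes were named by rule: the 10 highest of each group, the 5 nearest in level, the chromosomal neighbours, and, by level in *Btg4*-depleted oocytes, the 5 highest other *Ccdc* genes and the 2 highest of each list. *Ccdc107*, *Ccdc3*, the somatic markers other than *Inha* and *Inhba*, and the genes sharing the repeat were named after their values were seen.

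GENCODE M21 transcripts (GRCm38) were aligned with blastn 2.17.0+ (E-value limit 1e-05), and coordinates come from this build, not from the authors' alignment. The scaling was tried on simulated group means with few changed genes, as many raised as lowered. Changes in these data were more frequent and uneven in direction, so that trial says nothing of the scale here. Python 3.11.15, numpy 2.4.6, pandas 2.3.3, statsmodels 0.14.6 and matplotlib 3.10.9 were used.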

Additional observations from a re-analysis of the deposited data

How the results depend on the processing

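The log2 ratio of *Ccdc82* was 2.23 without scaling, 2.41 with the median of ratios, 2.32 with the upper quartile, 2.52 with no filter, 2.41 at a minimum of 5 FPKM, 2.66 with a loess trend on length removed and 2.29 with one on level removed. With the columns set to the same sum of FPKM it was 2.16, without *Ccdc82* in the sum 2.26, without *Ubb* as well 2.32, and with the same sum of fragments without *Ccdc82*, chosen after seeing the data, 2.42. Quantile normalization gave 0 by construction. Genes at least 2-fold lower numbered 708 at a minimum of 5 FPKM and 1901 at the same sum of FPKM, against 1140. The share of *Ccdc82* in *Btg4*-depleted and control oocytes was 8.66% and 1.92% of summed FPKM without ribosomal RNA, and 8.89% and 1.92% without *Ubb*, while by fragments it was 16.5% and 3.56%. Of all genes past 2-fold 63.1% were higher after TMM and 49.1% without scaling. No library could be left out, since only group means are listed. No paired analysis was possible because the columns carry no replicate number. The spread between libraries is unknown, and the counting error covers fragments of amplified cDNA only. Under the same sum of FPKM 5 oocyte genes were at least 2-fold higher and 7 lower, against 10 and 3 after TMM. Over all 10012 measured genes 1494 were higher and 1901 lower on that scale, against 1953 and 1140 after TMM.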
